A study of Mus musculus with 6 samples.

Results

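Plasma cell genes were examined in the spleens of mice overexpressing AIMP2-DX2, a shortened splice form of AIMP2, which holds together the complex of tRNA synthetases in the cytosol. The 8 symbols that define the set, Prdm1, Irf4, Sdc1, Mzb1, Slamf7, Cd38, Tent5c and Fam46c, stand for 7 genes, since Fam46c is an older symbol of Tent5c. Of these, 6 had a probe set annotated to that gene alone, among 22180 genes on the arrays, and Cd38 was not analysed here because no probe set carried its symbol alone. The DX2 mice (genotype CAG-rtTA; TRE DX2/+) had rtTA, an activator that works in the presence of doxycycline, driven by the ubiquitous CAG promoter, together with a DX2 transgene that rtTA switches on. The control littermates (genotype 0; TRE DX2 /+) had this DX2 transgene and no rtTA. Doxycycline was in the food of all mice at 6.25 mg per kg, starting at 8 weeks, and spleens of 3 mice per group, aged 1 year, were measured whole on 1 Affymetrix array each. Only the DX2 mice carried rtTA, so effects of DX2 and of rtTA cannot be told apart.

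Plasma cells are the antibody-secreting end stage of the B cell lineage. IRF4 and Blimp-1, the product of Prdm1, drive the transition from B cell to plasma cell, and Blimp-1 shuts down genes of B cell identity such as Pax5 and Ciita. The secretory machinery then expands so that the cell can export immunoglobulin, and in the spleen plasma cells lie mainly in the red pulp, apart from the follicles that hold mature B cells.

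Most of these genes are also active in other spleen cells. Irf4 is also active in activated lymphocytes and dendritic cells, Prdm1 in T cell subsets and macrophages, Slamf7 in natural killer cells, and Tent5c in erythroid cells. In RNA from whole spleen, fewer cells of a type and less RNA per cell cannot be told apart. Values are log2 expression as deposited, differences are DX2 minus control, and a gene is said to have risen or fallen only where it passed an adjusted p of 0.05 over all 22180 genes (limma, Benjamini-Hochberg). Levels are compared between arrays for one gene, as read or minus a mean of other genes on the same array. Genes are not ranked by level.

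Whole-spleen differences set the frame for the plasma cell genes. Over all genes, 0.316% passed the threshold, 8 higher and 62 lower in DX2 spleens, and the median difference was 0.01 on the log2 scale. All 19 measured genes of the mature B cell list were lower in DX2 spleens (median difference -1.18). By Xist and the Y-linked Eif2s3y, the 3 DX2 spleens and control 3 were male and controls 1 and 2 female, so sex overlapped in part with genotype. A fit with a sex term therefore sets the 3 DX2 spleens against control 3 alone. Pearson correlations over all genes were 0.967 to 0.983 between DX2 arrays and 0.986 to 0.988 between control arrays, genes not being independent replicates.

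No plasma cell gene passed the threshold in DX2 against control spleens (0 of 6, limma, adjusted p of 0.05), against 0.316% of all genes, and 1 of 6, Irf4, had an unadjusted p under 0.05, against 16.0% of all genes. Differences ran from -0.68 for Irf4 to 0.48 for Tent5c, with a median of -0.20. The groups did not overlap for 1 of the 6, again Irf4, against 22.0% of all genes. With 6 genes, these counts do not set them apart from the rest of the array.

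**Figure D1:**
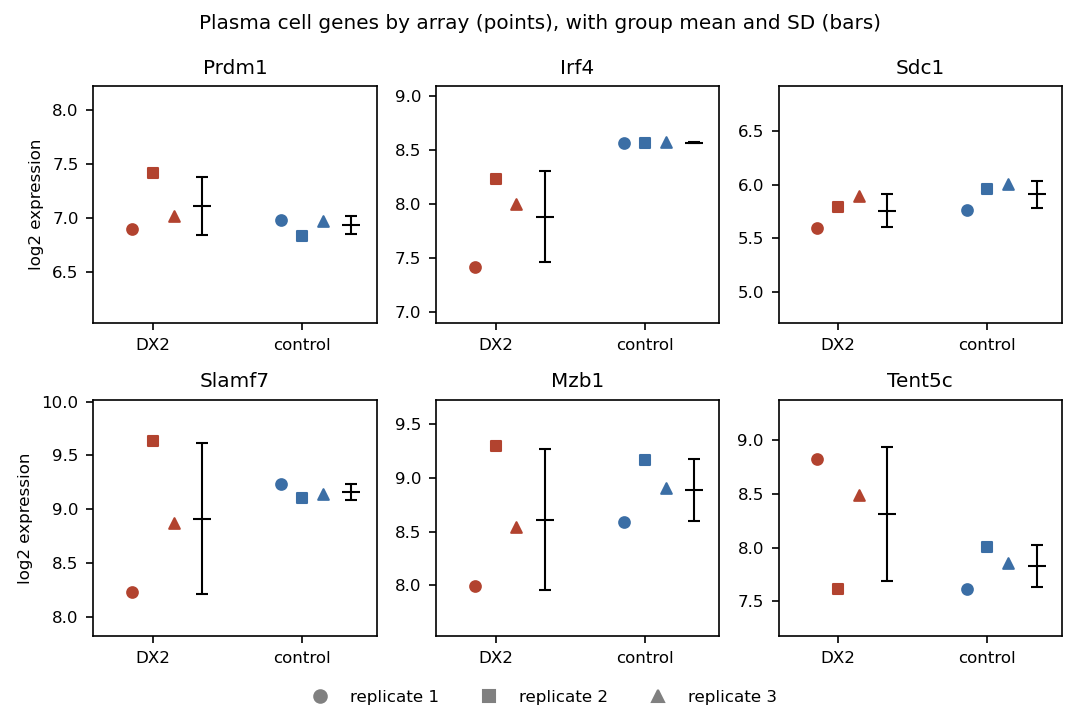
Log2 expression of the 6 plasma cell genes on each array, DX2 left of control, with every panel spanning the same width of the log2 scale. Points are arrays, marked by replicate, and bars give the group mean and SD (n = 3 each). Only Irf4 has its 3 DX2 points (7.42 to 8.23) below its 3 control points (8.56 to 8.57).

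Irf4 encodes a transcription factor needed for plasma cell formation. Its log2 expression was 7.42, 8.23 and 8.00 in DX2 spleens 1, 2 and 3, against 8.57, 8.56 and 8.57 in control spleens 1, 2 and 3. The control arrays lay within 0.00978 of each other while the DX2 arrays spread over 0.81, with DX2 1 lowest and every DX2 array below every control array. The difference was -0.68 (SE 0.20), a 1.61-fold lower mean in DX2, and did not pass over all genes (limma, adjusted p = 0.168). With a sex term added, which sets the DX2 spleens against control 3 alone, the difference was -0.69. It was -0.45 without DX2 1 and -0.86 without DX2 2.

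Prdm1, which encodes the repressor Blimp-1, read 6.89, 7.41 and 7.02 in DX2 spleens 1, 2 and 3, against 6.98, 6.83 and 6.97 in the controls (log2 expression). DX2 2 was above all other arrays and the 2 other DX2 arrays lay near the controls, so the groups overlapped. The mean log2 expression was 7.11 ± 0.27 in DX2 and 6.93 ± 0.08 in control (SD, n = 3 each). The difference of 0.18 (95% interval -0.18 to 0.53) did not pass (limma, adjusted p = 0.628), and without DX2 2 it was 0.02. The DX2 arrays spread over 0.52 and the control arrays over 0.15. Prdm1 and Irf4 thus had differences of opposite sign, neither past the threshold.

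Of the surface proteins, Sdc1 (syndecan-1, CD138) is the usual marker by which plasma cells are sorted. Its brighter probe set read 5.59, 5.79 and 5.89 in DX2 spleens, against 5.77, 5.96 and 6.001 in controls (log2 expression). DX2 1 was lowest of all, but DX2 2 and 3 lay above control 1. The difference was -0.15 (95% interval -0.45 to 0.14) and did not pass (limma, adjusted p = 0.607), and the dimmer probe set of Sdc1 differed by -0.05. It was -0.071 without DX2 1, -0.053 after a second quantile normalization and -0.061 with centred arrays. The floor of detection is not known here, and a probe set near it would understate a loss.

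Slamf7, a receptor of the SLAM family displayed by plasma cells and natural killer cells, varied most among DX2 spleens. Its log2 expression was 8.23, 9.63 and 8.87 in DX2 spleens 1, 2 and 3, against 9.24, 9.10 and 9.14 in controls. The DX2 values bracketed the controls, with DX2 2 above and DX2 1 and DX2 3 below all of them. The SD was 0.70 in DX2 against 0.07 in control (n = 3 each), and the mean difference of -0.25 (SE 0.31) did not pass (limma, adjusted p = 0.748). It was 0.09 without DX2 1 and -0.61 without DX2 2.

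Mzb1 encodes an endoplasmic reticulum protein of marginal zone B cells and plasma cells that helps immunoglobulin fold and assemble. Its log2 expression was 7.99, 9.30 and 8.54 in DX2 spleens 1, 2 and 3, against 8.59, 9.17 and 8.91 in controls. As with Slamf7, the highest and the lowest array of the series were both DX2 spleens, DX2 2 and DX2 1. The difference was -0.28 (SE 0.32, 95% interval -1.02 to 0.46) and did not pass (limma, adjusted p = 0.720). It was 0.03 without DX2 1 and -0.62 without DX2 2. The DX2 arrays spread over 1.31 and the control arrays over 0.58.

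Tent5c (Fam46c) encodes a cytoplasmic poly(A) polymerase that extends the tails of mRNAs for secreted proteins, immunoglobulin among them. Its log2 expression was 8.82, 7.62 and 8.49 in DX2 spleens 1, 2 and 3, against 7.62, 8.01 and 7.86 in controls. DX2 1 and DX2 3 stood above every control and DX2 2 stood level with control 1, the lowest control. At 0.48 (SE 0.29) the difference missed the threshold (limma, adjusted p = 0.474), and it was 0.83 without DX2 2 and 0.22 without DX2 1. Tent5c was thus high where Slamf7 and Mzb1 were low among the DX2 spleens.

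Irf4 and Tent5c had the lowest and the highest difference of the 6 genes, and the 250 bases before their annotated starts are shown for that reason (RefSeq, GRCm38.p6, gene orientation). For Irf4 the stretch is chr13:30748983-30749232 on the plus strand, and for Tent5c it is chr3:100489193-100489442 on the minus strand. Capitals mark GAAAG on either strand, the core letters of Blimp-1 sites.
Irf4: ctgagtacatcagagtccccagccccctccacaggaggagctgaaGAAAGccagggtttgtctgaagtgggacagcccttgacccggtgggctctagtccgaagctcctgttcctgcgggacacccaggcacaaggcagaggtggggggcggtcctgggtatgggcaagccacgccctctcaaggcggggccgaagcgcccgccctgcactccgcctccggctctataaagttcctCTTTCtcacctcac
Tent5c: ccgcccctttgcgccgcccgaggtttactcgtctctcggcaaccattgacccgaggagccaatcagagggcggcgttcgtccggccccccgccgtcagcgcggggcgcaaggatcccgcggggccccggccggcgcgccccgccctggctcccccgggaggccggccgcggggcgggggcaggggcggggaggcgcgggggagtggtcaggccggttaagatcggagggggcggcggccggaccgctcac
The Irf4 stretch held GAAAG 2 times and the Tent5c stretch 0 times, while 51.5% of 32851 mouse promoter stretches of the same length held it at least once. AGATAA, the letters of a GATA factor site, were in neither, and in 9.99% of all stretches. G and C made up 63.6% of the Irf4 stretch and 78.8% of the Tent5c stretch, against a median of 52.4% over all stretches. These matches describe the letters in this window only.

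The wider plasma cell list of 20 symbols, whose 18 measured genes include secretory and antibody-assembly genes, had no member past the threshold in either direction (limma, adjusted p of 0.05, against 0.316% of all genes). At an unadjusted p under 0.05 there were 4 of 18, against 16.0% of all genes. Of the 18, 5 were higher and 13 lower in DX2 spleens. The median difference was -0.11, within a range of -0.50 to 0.52. The groups did not overlap for 4 of 18, against 22.0% of all genes.

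The genes of that list with the smallest unadjusted p went in both directions. Edem1, which routes misfolded glycoproteins to degradation, had log2 values of 9.30, 9.88 and 9.28 in DX2 spleens, against 8.98, 9.15 and 8.96 in controls, a difference of 0.45 (SE 0.18). Ckap4, a membrane protein of the rough endoplasmic reticulum, differed by 0.52 (SE 0.20), with overlapping groups. Glcci1 differed by -0.50 (SE 0.15) and Prg2, the major basic protein of eosinophil granules, by -0.47 (SE 0.17), and for both the DX2 arrays lay below the controls. Without DX2 2 the difference was 0.26 for Edem1 and 0.32 for Ckap4, and without DX2 3 it was -0.305 for Prg2. None passed over all genes (limma, adjusted p from 0.182 to 0.272).

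Of the same list, 4 further genes of antibody secretion are given that were singled out after their values were seen, so they stand as values only. Jchain, which links IgM and IgA into polymers, had log2 values of 11.60, 11.55 and 10.88 in DX2 spleens, against 11.39, 11.53 and 11.44 in controls. Only DX2 3 lay apart, below all others, and the difference was -0.11 (SE 0.20). Xbp1, the transcription factor of the plasma cell secretory programme, averaged 8.97 ± 0.08 in DX2 and 8.94 ± 0.16 in control (log2 expression, SD, n = 3 each), a difference of 0.03 (SE 0.12). Tnfrsf17, the survival receptor BCMA, differed by -0.17 (SE 0.21). Txndc5, an oxidoreductase of the endoplasmic reticulum, had log2 values of 8.72, 9.90 and 9.08 in DX2 spleens, against 9.41, 9.37 and 9.27 in controls, so the DX2 values bracketed the controls as they did for Slamf7.

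Immunoglobulin heavy chain probe sets did not give one answer. Of 13 constant region symbols, 2 were measured by probe sets of 1 gene. The brightest Ighm probe set read 13.04, 11.73 and 12.50 in DX2 spleens, against 13.12, 12.96 and 12.98 in controls (log2 expression), with DX2 2 lowest. That probe set differed by -0.59 (SE 0.29) without passing (limma, adjusted p = 0.383), and by -0.25 without DX2 2 and -0.90 without DX2 1. Differences of the other Ighm probe sets ran from -1.40 to 0.44. Ighg3 read 9.12, 6.27 and 11.40 in DX2 spleens, against 9.51, 11.80 and 10.95 in controls, with DX2 2 again lowest, and its 2 probe sets differed by -1.83 and 0.15. Heavy chain genes share sequence, so the signal of any single one is uncertain.

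Mature B cell genes were lower by a larger amount than the plasma cell genes. Of 19 measured genes on that list, 6 fell (Cr2, Fcer2a, Ebf1, Ccr6, Cxcr5 and Cd79b), against 0.280% of all genes called lower, and 18 had every DX2 array below every control array, against 11.2% of all genes. Cr2, the complement receptor of follicular and marginal zone B cells, read 8.19, 6.39 and 7.49 in DX2 spleens, against 10.59, 10.10 and 10.86 in controls (log2 expression), a difference of -3.16 (SE 0.43). Cd79b, a signalling chain of the B cell receptor, read 9.55, 9.87 and 10.08 in DX2 spleens, against 10.88, 10.92 and 11.13 in controls. The DX2 and control groups stood clearly apart for both. The 6 calls were lost without control 1, 2 or 3 or DX2 3. Without DX2 1 only that of Cr2 held (limma, adjusted p of 0.05). The list had 8 calls without DX2 2 and none with the replicate number as a block or with centred arrays. Over all genes the count went from 70 to 370 without DX2 2, to 1 with the block and to 2 with centred arrays. With a sex term, which sets the DX2 spleens against control 3 alone, the difference was -3.51 for Cr2 and -1.30 for Cd79b. With a robust prior the list had 4 calls, without Cr2 (limma, adjusted p = 0.0596) and Fcer2a (adjusted p = 0.0560). Fcer2a also missed the threshold when every one-gene probe set was tested (limma, adjusted p = 0.0530).

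Differences on the mature B cell list ran from -3.16 (Cr2) to -0.59 (Vpreb3). Of the plasma cell genes, Irf4 at -0.68 lay inside that range, near Tnfrsf13c (-0.66), which encodes the BAFF receptor. The 5 others, from -0.28 to 0.48, lay above the whole range. The median difference of all genes, 0.01, also lay above it, so that position is not particular to plasma cell genes. The list was known to be low in these data when it was chosen, so this order is a description.

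**Figure D2:**
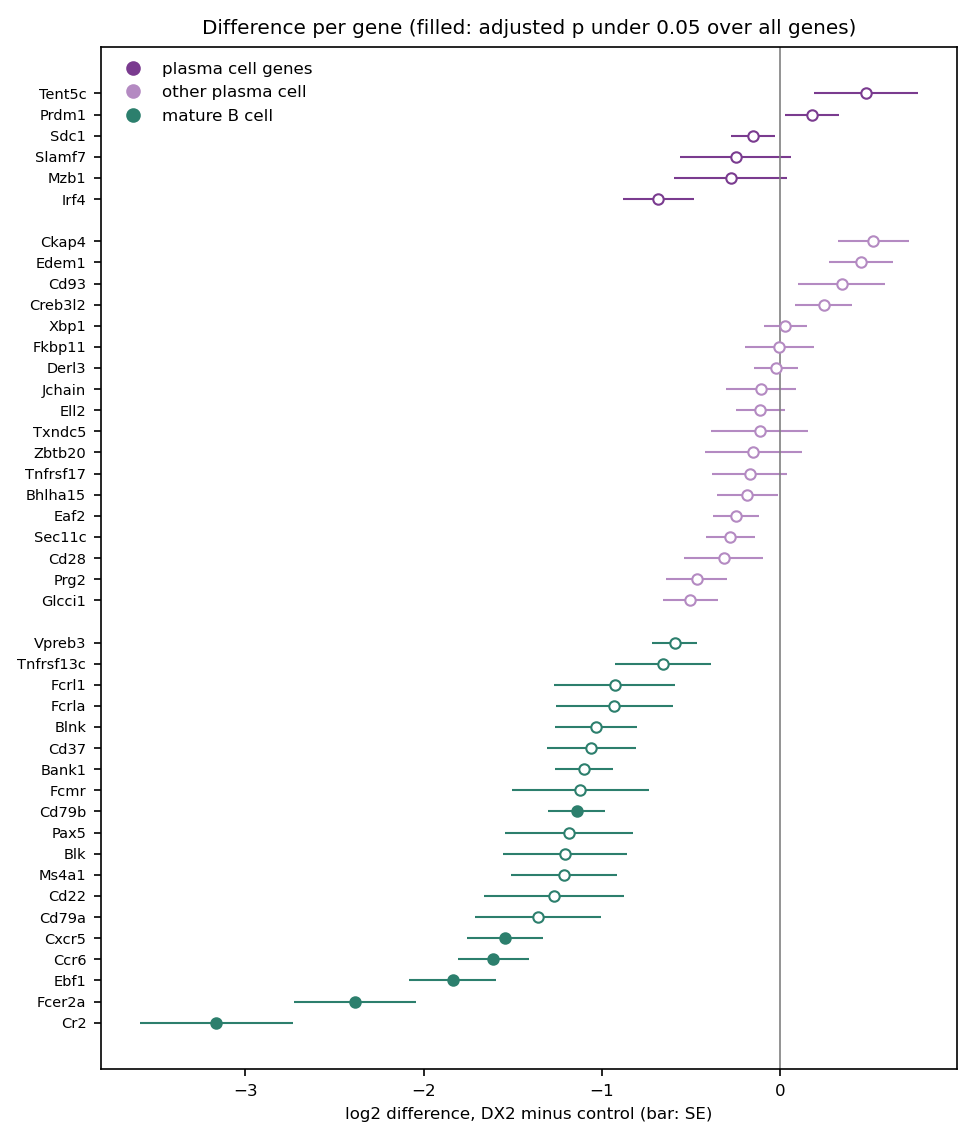
Log2 difference, DX2 minus control, with its SE for each measured plasma cell gene, each gene of the wider plasma cell list and each mature B cell gene. Filled points passed an adjusted p of 0.05 over all genes. The mature B cell genes lie between -3.16 and -0.59 and the plasma cell genes between -0.68 and 0.48, with Irf4 alone inside the B cell range.

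Each plasma cell gene was also set against the mean of the 19 mature B cell genes on the same array. That mean was 7.78, 8.33 and 8.54 in DX2 spleens 1, 2 and 3, against 9.58, 9.38 and 9.69 in controls (log2 expression). Subtracting it shifts every gene alike, and the median relative difference was 1.34 over all genes and 1.13 over the 6 plasma cell genes. Relative to it, Irf4 stood at -0.36, -0.10 and -0.54 in DX2 spleens, against -1.01, -0.82 and -1.12 in controls, a difference of 0.65. Prdm1 stood at -0.89, -0.91 and -1.52 in DX2 spleens, against -2.59, -2.54 and -2.72 in controls, a difference of 1.51. For both genes every DX2 array was above every control array, as it was for 97.6% of all genes.

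The relative differences of the other genes were 1.05 for Mzb1, 1.08 for Slamf7, 1.18 for Sdc1 and 1.81 for Tent5c, and the groups did not overlap for any of them. Irf4, Mzb1, Slamf7 and Sdc1 lay below the median of all genes, and Prdm1 and Tent5c above it. An exact two-sided permutation test of 3 against 3 arrays cannot go below p = 0.1, which any gene without overlap reaches, so it adds nothing here. In limma over all genes 6 of 6 were called higher relative to the B cell mean, against 98.4% of all genes, so the call is shared with nearly every gene on the array and is not particular to plasma cell genes. All genes share the same reference mean in that fit. Its SE was 0.319 for each of the 6, so its p-values do not reflect the spread of each gene. In a plain per-gene fit without moderation the SE ran from 0.156 for Irf4 to 0.541 for Tent5c. Adjusted p-values were larger in the plain fit for all but Irf4. In that plain fit 5 of 6 were called, all but Mzb1, against 92.3% of all genes. The Irf4 call was lost without DX2 2 or without any one control, with a sex term, and against 4 core B cell genes (Ms4a1, Cd79a, Cd79b and Cd22), where its difference was 0.56.

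**Figure D3:**
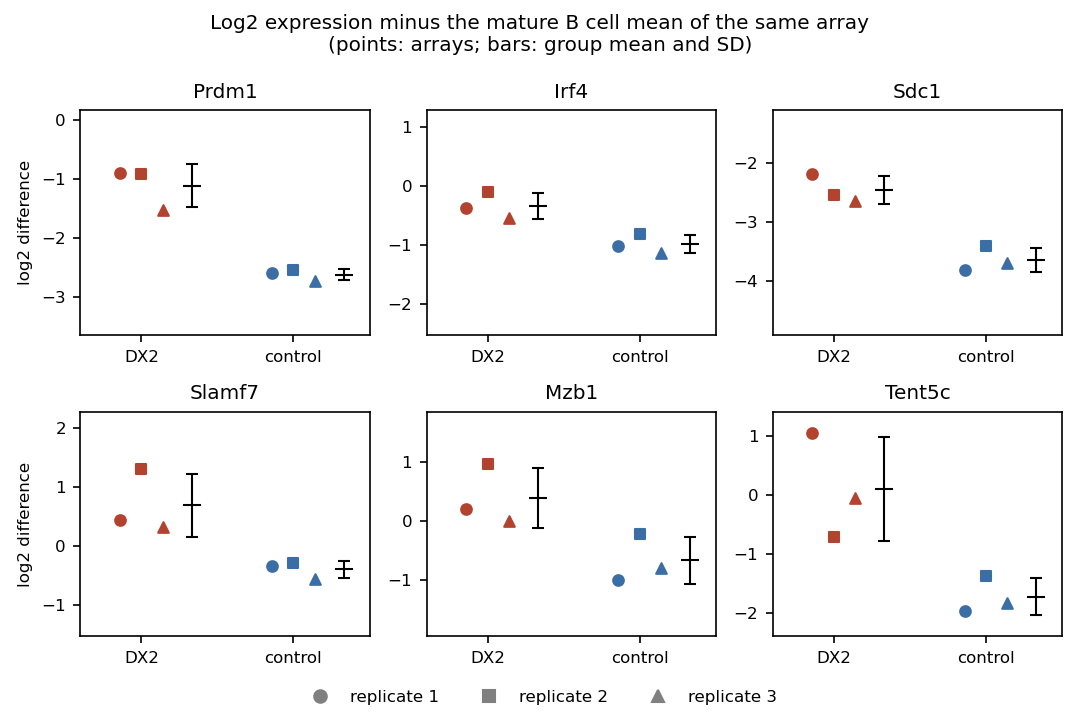
Log2 expression of each plasma cell gene minus the mean of the 19 mature B cell genes on the same array, DX2 left of control, with every panel spanning the same width of the log2 scale. Points are arrays and bars the group mean and SD (n = 3 each). In all 6 panels the DX2 points lie above the control points, by a mean of 0.65 for Irf4 and up to 1.81 for Tent5c.

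Genes that Blimp-1 silences, or that act against it in B cells, were mostly lower in DX2 spleens. Of 9 measured, 8 were lower, with a median difference of -0.64, and 1 fell, Ets1, against 0.280% of all genes called lower. Ets1, a transcription factor that restrains plasma cell differentiation, differed by -0.80 (SE 0.11; limma, adjusted p = 0.0456). The Ets1 call was lost without any one array other than DX2 2, with a sex term and with centred arrays. Bach2, a repressor of Prdm1, read 6.52, 7.24 and 6.96 in DX2 spleens, against 7.90, 7.96 and 8.22 in controls (log2 expression), a difference of -1.12 that did not pass (adjusted p = 0.0733). Pax5 differed by -1.18 and Ciita by -0.76, both without passing, and by -0.75 and -0.41 when DX2 1 was left out. Pax5 is also on the mature B cell list, whose median difference was -1.18. The part of mature B cells in the values of these 9 genes was not tested. Myc, the only higher member, differed by 0.18.

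Markers of other cell types moved with some of these genes from array to array. All 14 measured erythroid genes were higher in DX2 (median 1.26, 0 past the threshold), and their mean log2 expression was 9.53, 7.24 and 9.20 in DX2 spleens 1, 2 and 3, against 6.20, 8.01 and 7.87 in controls. Sums of log2 values over the list ranged from 101 to 133 in DX2 and from 86.8 to 112 in control, and no marker was at 0. The order of the 6 arrays by the erythroid mean was the same as by Tent5c, with DX2 1 and DX2 3 on top and DX2 2 below controls 2 and 3. DX2 2 and control 1 were level for Tent5c (7.62 each), while their erythroid means were 7.24 and 6.20. The part of erythroid cells in the Tent5c values was not tested.

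All 11 measured T cell genes were lower in DX2 (median -0.36, 0 past the threshold), with a mean log2 expression of 6.66, 8.09 and 7.87 in DX2 spleens 1, 2 and 3, against 8.01, 7.76 and 8.02 in controls. The sums of log2 values ranged from 73.2 to 89.0 in DX2 and from 85.3 to 88.2 in control. The NK cell list had a mean of 5.79, 6.43 and 6.13 in DX2 spleens, against 6.41, 6.26 and 6.24 in controls. Both means were lowest in DX2 1 and highest in DX2 2, as were Slamf7 and Mzb1. Of 9 NK cell genes 7 were lower, with a median of -0.15 and sums from 52.1 to 57.9 in DX2 and from 56.2 to 57.7 in control, and the part of T and NK cells in the Slamf7 values was not tested.

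**Figure D4:**
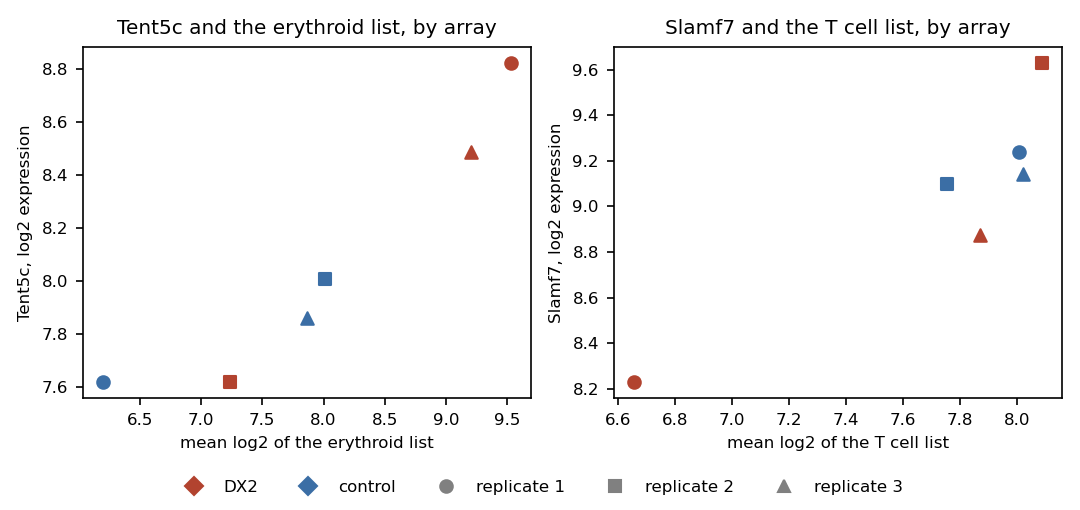
Tent5c against the mean of 14 erythroid genes (left) and Slamf7 against the mean of 11 T cell genes (right), in log2 expression, with 1 point per array coloured by group and marked by replicate. DX2 1 is highest for Tent5c (8.82) and lowest for Slamf7 (8.23), and DX2 2 is highest for Slamf7 (9.63).

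Macrophages, dividing cells and dendritic cells were measured by 3 further lists. Of 13 red pulp macrophage genes 10 were higher in DX2 (median 0.46), and Cd5l, a protein secreted by macrophages, rose by 1.35 (SE 0.18), against 0.0361% of all genes called higher, with list sums from 118 to 120 in DX2 and from 112 to 115 in control. All 19 cell cycle genes, which dividing plasmablasts share with erythroid precursors, were higher in DX2 (median 1.06), with 0 past the threshold. Each of the 19 had an unadjusted p under 0.05 (limma), against 16.0% of all genes. The groups did not overlap for 13 of the 19, against 22.0% of all genes. Their sums ran from 154 to 168 in DX2 and from 132 to 151 in control. The 9 dendritic cell genes had a median of -0.04, with 0 past the threshold and sums from 57.9 to 61.0 in DX2 and from 58.9 to 61.1 in control. The Cd5l call was lost without any one array other than DX2 2, with the replicate block and with centred arrays. With a sex term, which sets the DX2 spleens against control 3 alone, the Cd5l difference was 1.12. The part of these cells in the Irf4 and Prdm1 values was not tested.

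Of 4 symbols for signals that keep plasma cells alive in their niche, 3 were measured, without a call. Tnfsf13, the symbol left out, had no probe set of 1 gene. Cxcl12, the chemokine that holds plasma cells in place, read 9.34, 7.96 and 8.72 in DX2 spleens, against 9.34, 9.08 and 9.39 in controls (log2 expression), a difference of -0.59 (SE 0.31), with DX2 2 lowest. Tnfsf13b, which encodes BAFF, differed by 0.07 (SE 0.25) and Il6 by 0.35 (SE 0.33), with overlapping groups for all 3 genes. Il6 read from 2.84 to 4.30 over the 6 arrays. A probe set near the floor of detection, which is not known here, would understate a difference.

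The genes whose 6 array values were most like each plasma cell gene were taken from 10553 others at or above the median level. For Irf4 they were Slamf6, Dip2b and Gimap6 (Pearson r of 0.999, 0.997 and 0.997 and Spearman rho of 0.829, 0.829 and 0.943 over 6 arrays), 2 of which, Slamf6 and Gimap6, are lymphocyte genes. For Slamf7 they were Gimap7, Tcf4 and Imp4 (each with r = 0.996 and rho = 1), and Gimap7, a lymphocyte GTPase, read 6.23, 8.91 and 7.57 in DX2 spleens, against 8.25, 7.78 and 7.96 in controls. For Tent5c they were Mkrn1, Cavin2 and Ehbp1l1 (r of 0.997, 0.996 and 0.995), for Prdm1 Ubtd1, Pphln1 and Acads (0.997, 0.996 and 0.992), for Mzb1 Sra1, Tmem199 and Cops8 (0.991, 0.990 and 0.985) and for Sdc1 Xpc, Utp25 and Thnsl1 (0.981, 0.976 and 0.968). These are the highest of 10553 coefficients per gene over 6 arrays, which share the difference between the groups, and carry no test.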

How the data were processed

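Each spleen gave 1 array. The log2 values were deposited by the authors as 1 table made with RMA, per the submitters' processing notes, which corrects background, normalizes arrays and summarises probes. RMA compresses large differences. The sources used here name no software, version or annotation for it, and the log2 scale was inferred from the range (0.771 to 13.3). Of 41345 probe sets, 23521 had 1 gene symbol, 1814 several and 16010 none, by the supplied platform annotation, and 22180 genes were each taken by their brightest probe set over 6 arrays. Precision is limited by the number of arrays.

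Groups and replicate numbers came from the titles, which call the samples biological replicates. Differences were fitted with limma 3.58.1 in R 4.3.3 (lmFit, eBayes, no covariate, no filter), adjusted by Benjamini-Hochberg over all genes. The fit was run on simulated data in which each gene was drawn independently. Such data hold no shared differences in cell make-up or sex between arrays, so the run does not check the fit for those. A second fit used each value minus the mean of the mature B cell list. The alternatives were the replicate block, each array left out, a filter, trend, robust prior, array weights, other scalings and probe set rules, a sex term and a looser threshold. A plain fit and the exact permutation test were chosen after seeing the data. The members and gene lists were chosen with earlier results of these data known. Named genes were all members, up to 4 genes of smallest p per list and any that passed, and the 3 most alike genes per member. Named outside that rule, after their values were seen, were Jchain, Xbp1, Tnfrsf17, Txndc5, Myc, Tnfrsf13c, Vpreb3 and the further core B cell genes.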

Additional observations from a re-analysis of the deposited data

How the results depend on the processing

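No plasma cell gene and no gene of the wider plasma cell list passed under any of 17 alternatives. The count over all genes, 70, was 1 with the replicate block, 125 without the 40% dimmest genes, 547 with array weights, 2 with arrays centred on their median, 2 with a sex term and 394 at an adjusted p under 0.1, and it ran from 1 to 370 with 1 array left out. The mature B cell count, 6, was 0 with the replicate block, with centred arrays and with a sex term, and ran from 0 to 8 with 1 array left out, while the median of that list ran from -1.36 to -0.81. Over all genes, deviations of same-numbered arrays from their group means correlated at -0.32, -0.14 and 0.07. With 3 arrays per group, these values cannot show whether the replicate numbers pair the samples. Leaving out 1 array gave differences from -0.62 to 0.030 for Mzb1, -0.61 to 0.091 for Slamf7, -0.24 to 0.12 for Jchain, -0.40 to 0.033 for Tnfrsf17, -0.45 to 0.14 for Txndc5 and -0.045 to 0.11 for Xbp1, which was -0.0012 with array weights. Irf4 ran from -0.86 to -0.45, Prdm1 from 0.024 to 0.28, Sdc1 from -0.22 to -0.071 and Tent5c from 0.22 to 0.83. The causes of these changes were not tested, and some of those fits had fewer arrays or degrees of freedom. With the sex term, the DX2 spleens are set against control 3 alone. Centring moved the median of all genes to 0.10. Relative to the mature B cell mean, 5 or 6 of the 6 genes were called under each of 20 alternatives, against 92.3% to 99.2% of all genes.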
